A study of Pyrus ussuriensis with 15 samples.

Results

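Early root induction in Pyrus ussuriensis, an Asian pear, was described at the level of messenger RNA. The 3 libraries of day 3 were set against the 3 libraries of day 0. These are 6 of the 15 messenger RNA libraries of a course of adventitious root development that runs over 5 days, and they were chosen by the development stage in the labels. The root induction medium, named for every sample, was a reduced-strength MS medium with 0.5 mg/L of the auxin IBA (indole-3-butyric acid), 30.0 g/L sucrose and agar at pH 6.0. Both days come from the same material, adventitious buds of even growth that had been subcultured for 25 days before induction. No mutant or transgene is named, and no group kept off the medium. Auxin, transfer to the medium and time in culture therefore cannot be told apart here. The tissue label reads adventitious roots on both days, although day 0 is the first sampled day. Whether day 0 material had touched the medium, how many shoots went into a library and whether replicates were grown apart is not said. The p-value of a model rests on the spread of 3 libraries a day over all 5 days, and that spread may therefore be technical. Of 44681 gene models in the deposited table, 29134 had enough counts to be tested. The table gives no gene names, so the tissue label was not checked against marker genes, and what a model encodes is not stated here.

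Adventitious roots form on stems, leaves or shoots rather than from the seedling's own root. Plant cells convert IBA to indole-3-acetic acid, the main natural auxin, whose binding to TIR1/AFB receptors leads to the breakdown of Aux/IAA repressors and frees ARF transcription factors to act on their target genes. In cuttings of many species, cells near the vascular tissue then turn into founder cells, divide and organise a root primordium before any root can be seen, so the first days on auxin medium are those in which auxin signalling and the change of cell identity are under way.

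In these libraries, 1301 models were higher and 1427 were lower at day 3 than at day 0, which is 4.47% and 4.90% of all models tested, or 9.36% in both directions (edgeR quasi-likelihood test over all 15 libraries, Benjamini-Hochberg adjusted p under 0.05). Of these, 548 rose and 661 fell by at least 2-fold, which is 1.88% and 2.27% of the models tested. In this fit, larger steps held more falls than rises. Here 153 models rose and 246 fell by at least 4-fold, and 41 rose and 98 fell by at least 8-fold. By at least 16-fold, 13 rose and 41 fell. At 2-fold the order turned round without day 0 replicate 3 (348 rises, 320 falls). It also did so without day 3 replicate 1 (420 and 418), 2 (302 and 261) or 3 (456 and 325). The order held without day 0 replicate 1 or 2. Larger steps were not counted with a library left out. Most models moved little, since 71.8% of those tested lay within 0.5 of no change on the log2 scale and the median log2 fold change was -0.01. The 3 libraries of day 3 all lay above or all below those of day 0 in 1281 of the models called higher and 1412 of those called lower. Over all models tested, 15.6% lay apart in this way on the higher side and 16.6% on the lower side.

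**Figure D1:**
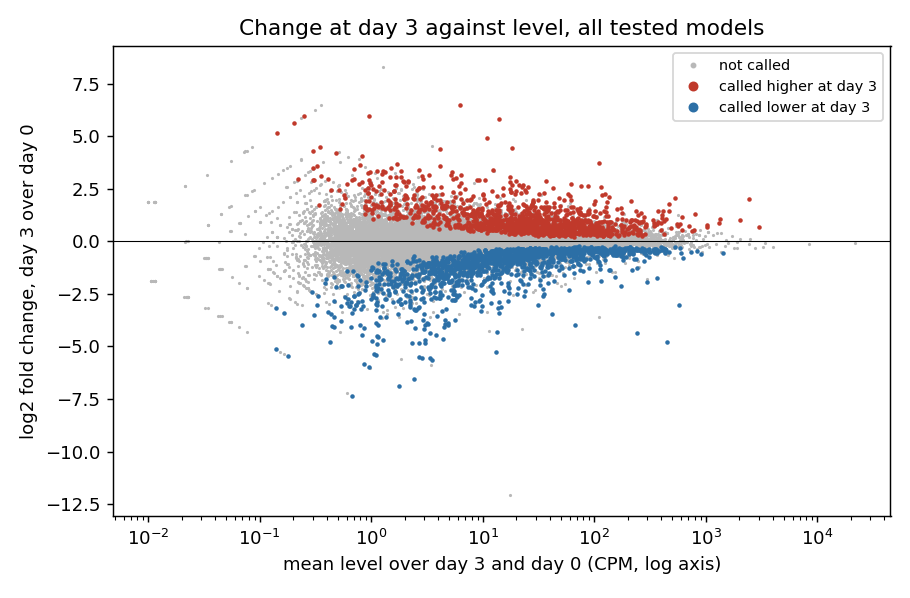
Log2 fold change of day 3 over day 0 against the mean level of the model (mean over the 6 libraries in CPM, log axis) for the models tested. Red points are the 1301 models called higher at day 3, blue points the 1427 called lower, and grey points those not called. The called points lie close to 0 at the right end of the plot and farther from it at low levels, with a median absolute change of 0.54 in the highest of 10 level classes and 2.90 in the lowest.

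The depth was similar on both days, with 14351055 to 16452855 counts per library at day 3 and 14357737 to 15367355 at day 0. A count was found for 32687 to 32995 models per library at day 3 and for 32979 to 33086 at day 0. On the first principal component of log2 CPM (counts per 1000000 after TMM scaling), which held 46.5% of the variance of the 6 libraries, day 3 replicates 1, 2 and 3 had scores of 41.9, 59.9 and 52.7, and day 0 replicates 1, 2 and 3 had scores of -32.1, -57.5 and -65.0. Day 0 replicate 1 was thus the day 0 library nearest to day 3. The libraries correlated across genes at 0.972 to 0.977 within day 3, at 0.963 to 0.969 within day 0 and at 0.936 to 0.962 between the days (Pearson's r of log2 CPM), and the median SD of a model over the replicates was 0.182 on the log2 scale at day 3 and 0.221 at day 0.

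The strongest rise that was called with each library left out in turn was that of Pbr013951.1, a model of 522 coding bases on scaffold205.0 (434966 to 435854, minus strand). It had 271, 99 and 206 counts in the 3 day 3 libraries, against 6, 0 and 0 counts at day 0. Per length this was 24.0 ± 9.72 FPKM at day 3 against 0.249 ± 0.432 FPKM at day 0 (SD, n = 3 each). Days without overlap were part of the rule for naming a model, so the gap between them follows from the choice. The ratio of the summed counts, scaled to the totals, was 93.4 with a 95% interval of 42.6 to 256 that covers counting error only (exact binomial). The fitted log2 fold change was 6.48 ± 0.721 (SE, edgeR adjusted p = 0.000961). All day 0 counts came from replicate 1, and the value fitted without that library, 10.55, depends on the prior count.

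The second rise among models with at least 2 CPM on their higher day was Pbr006185.1, on the plus strand of scaffold131.0 (496845 to 498210), with a coding length of 1044 bases. Its level was 4.15, 15.2 and 4.62 CPM in day 3 replicates 1, 2 and 3, against 0.443, 0.526 and 0.137 CPM in day 0 replicates 1, 2 and 3. The groups did not overlap, which the rule required, but day 3 replicate 2 stood more than 10 CPM above the other day 3 libraries. The log2 fold change was 4.39 ± 0.750 (SE, edgeR adjusted p = 0.0051), and 3.54 without day 3 replicate 2. On the later days it averaged 4.999 ± 4.02 CPM at day 6, 8.21 ± 2.40 CPM at day 9 and 8.85 ± 0.323 CPM at day 12 (SD, n = 3 each), so the libraries of day 12 lay closer together than those of day 3.

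The strongest fall under the same rule was Pbr027769.1, on the minus strand of scaffold458.0 (347949 to 348578), whose coding length of 630 bases equals its span, so that the model has no intron. It had 0, 0 and 1 count in day 3 replicates 1, 2 and 3, against 28, 57 and 75 counts in day 0 replicates 1, 2 and 3. The ratio of summed counts, day 3 over day 0, was 0.00608 with a 95% interval of 0.000153 to 0.0344 (exact binomial, counting error only). The fitted log2 fold change was -6.89 ± 0.790 (SE, edgeR adjusted p = 0.001), and -8.76 without day 3 replicate 3, the library with the lone count, where it depends on the prior count. Its level stayed low on later days, at 0.144 ± 0.127 CPM at day 6, 0.161 ± 0.102 CPM at day 9 and 0.313 ± 0.0436 CPM at day 12 (SD, n = 3 each), while the day 0 mean was 3.55 ± 1.69 CPM.

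Pbr027808.1, on the minus strand of scaffold46.0 (148756 to 150087), is also a model without an intron, with a coding length of 1332 bases. It had 0.120, 0 and 0.276 CPM in day 3 replicates 1, 2 and 3, against 3.92, 7.36 and 9.30 CPM in day 0 replicates 1, 2 and 3. In both models that fell, day 0 replicate 1 was the lowest day 0 library, yet it lay far above each day 3 library. The log2 fold change of Pbr027808.1 was -5.63 ± 0.559 (SE, edgeR adjusted p = 0.000612), and -6.59 without day 3 replicate 3. The mean was 0.193 ± 0.0393 CPM at day 6, 0.0983 ± 0.0289 CPM at day 9 and 0.0970 ± 0.0271 CPM at day 12 (SD, n = 3 each), so no later day came back towards the day 0 mean of 6.86 ± 2.72 CPM. Both falling models had at most 6 counts in any library outside day 0, so they could pass the filter only through day 0. Their calls are therefore not separate support for the falls. Each later day was also compared with the same day 0 libraries, which had served to choose the model. The log2 fold changes for Pbr027808.1 were -5.08 on day 6, -5.99 on day 9 and -6.01 on day 12.

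**Figure D2:**
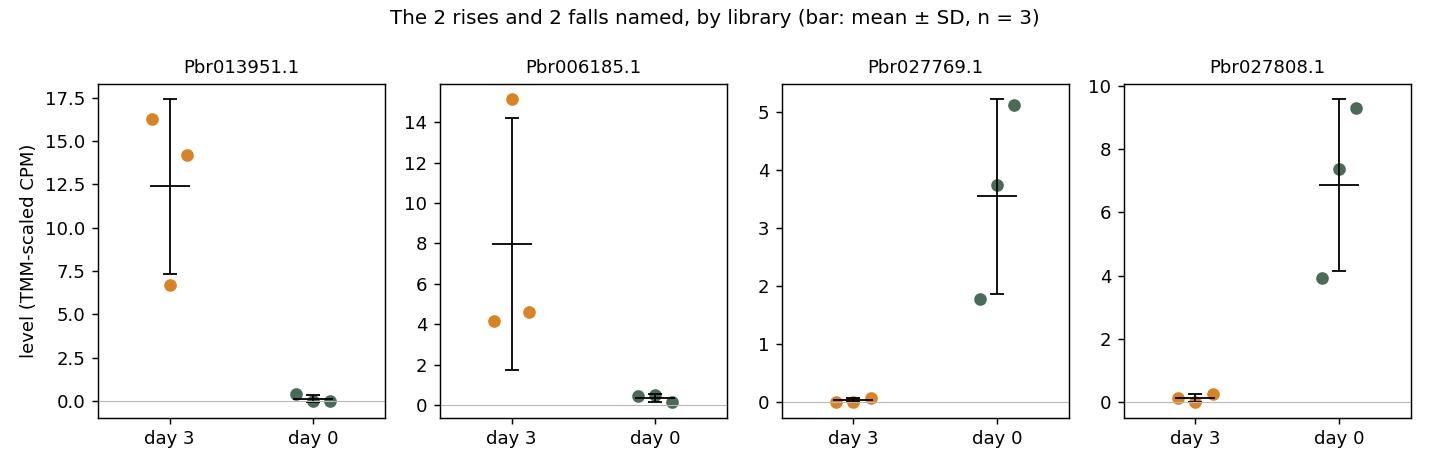
Level in each library (TMM-scaled CPM, linear axes that differ between panels) of the 2 models with the largest rises and the 2 with the largest falls among those with at least 2 CPM on their higher day that were called with every library left out in turn. Points are libraries, with day 3 left of day 0, and bars give the mean ± SD of 3 libraries. The rule also asked for days without overlap, so the gap between day 3 and day 0 points in each panel follows from the choice. The day 3 points of both falls lie at or near 0.

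Calls that held when any 1 of the 6 libraries was left out formed a smaller set. They were 402 models that were higher and 316 that were lower, which is 1.38% and 1.08% of the models tested and 30.9% and 22.1% of the calls in each direction. Of this set, 218 models rose and 196 fell by at least 2-fold. The median log2 fold change was 1.07 for the 402 and -1.26 for the 316, and their median levels per length were 36.4 FPKM at day 3 against 16.7 FPKM at day 0 for the rises and 8.58 FPKM at day 3 against 20.9 FPKM at day 0 for the falls. At the other end, 146 higher and 164 lower calls were lost in each of the 6 fits. A fit on the day 0 and day 3 libraries alone called 704 of the 718 models of the smaller set, and kept 63.9% of all calls. DESeq2 called all 718, but it also kept 99.7% of all calls. With a replicate block added to the fit on these 6 libraries, 438 of the 718 were called, and 28.4% of all calls were kept.

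**Figure D3:**
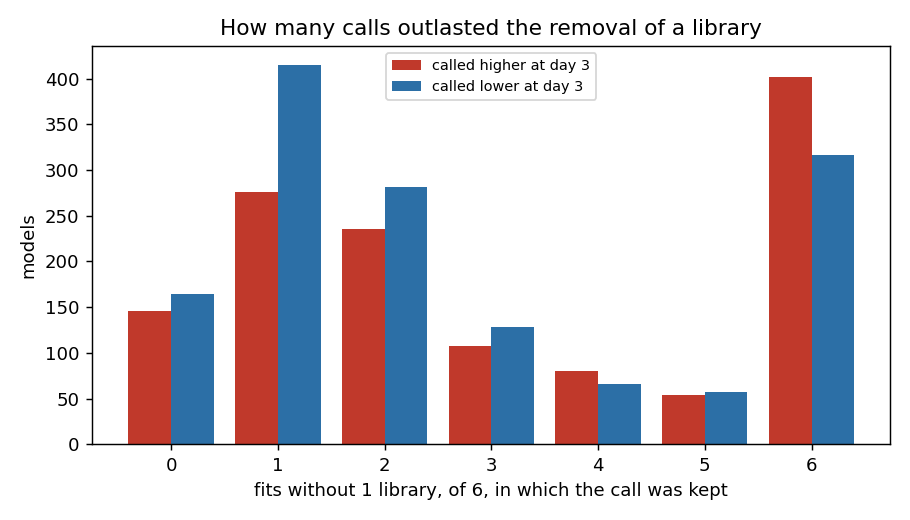
Number of models called higher (red) or lower (blue) at day 3, by the number of fits, out of 6 that each left out 1 day 3 or day 0 library, in which the call was kept. The tallest red bar, 402 models, is at 6 of 6 fits, whereas the tallest blue bar, 415 models, is at 1 of 6.

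Within the changed models, day 0 replicate 1 was often the day 0 library nearest to day 3. The first principal component rests on the same values, so this is not a separate observation. The shares below were not counted over all models tested. Of the 661 models that fell by at least 2-fold, day 0 replicate 1 was the lowest of the day 0 libraries in 456 (69.0%), replicate 2 in 122 (18.5%) and replicate 3 in 83 (12.6%). Of the 548 that rose by at least 2-fold, it was the highest of the day 0 libraries in 249 (45.4%), replicate 2 in 138 and replicate 3 in 161. Without day 0 replicate 1, 494 models rose and 772 fell by at least 2-fold. Leaving out day 0 replicate 2 gave 272 rises and 333 falls, and leaving out day 0 replicate 3 gave 348 and 320. For day 3, leaving out replicate 1 gave 420 and 418, replicate 2 gave 302 and 261, and replicate 3 gave 456 and 325. Each of these fits has 1 library fewer. What moved the counts, down or up, was not tested, and neither was the part of each library in them.

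Falls of at least 2-fold were unevenly spread over the levels of the models, and rises less so. When the models tested were put in 10 classes of equal size by their mean CPM over the 6 libraries, the 5 lower classes held 286 rises and 492 falls of at least 2-fold (1.96% and 3.38% of 14567 models), whereas the 5 upper classes held 262 rises and 169 falls (1.80% and 1.16%). Over all models tested these shares were 1.88% and 2.27%, so the share of rises lay near that of all models in both parts. In the highest class, from 75.3 CPM up, 59 models rose and 17 fell by at least 2-fold, which is 2.02% and 0.583% of its 2914 models. In the third class from the bottom, between 2.15 and 3.95 CPM, 61 rose and 122 fell. Summed over the classes, falls outnumbered rises in the 5 lower ones and rises outnumbered falls in the 5 upper ones in each of the 15 alternative fits. The size of change that was called depended on the level, with a median absolute log2 change of 2.90 among the calls of the lowest class and 0.54 among those of the highest. The median level per length was 16.4 FPKM at day 3 against 5.05 FPKM at day 0 for the 548 rises, and 1.81 FPKM at day 3 against 6.35 FPKM at day 0 for the 661 falls.

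**Figure D4:**
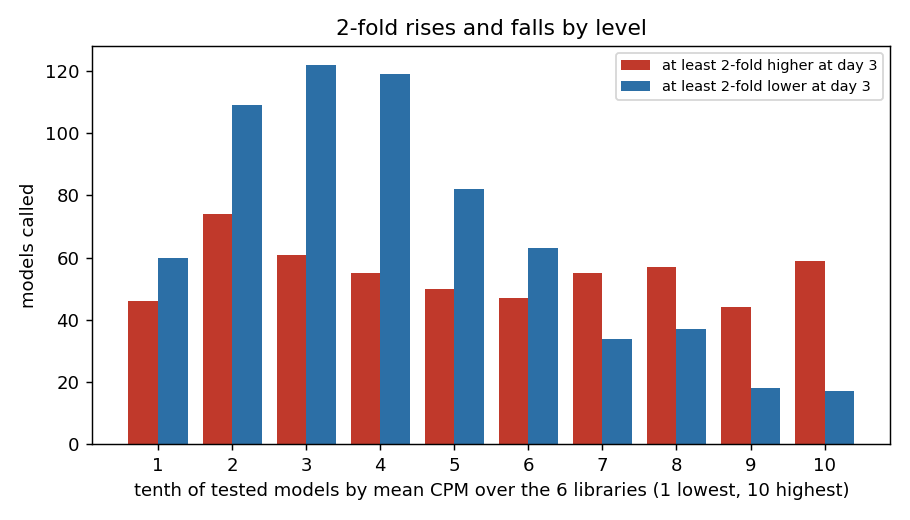
Number of models that rose (red) or fell (blue) by at least 2-fold at day 3, in 10 classes of equal size by mean CPM over the 6 libraries, from the lowest (1) to the highest (10). Blue bars are taller in classes 1 to 6, with a peak of 122 in class 3, and red bars are taller in classes 7 to 10, with 59 against 17 in class 10.

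Among the 100 models with the most counts in the 6 libraries, 14 were called higher, 5 of them at least 2-fold, and 7 were called lower by less than 2-fold. Over all models tested, 4.47% were called higher, 1.88% at least 2-fold, and 4.90% lower, and in the highest of the 10 level classes 16.4% were called in either direction. The largest gain in CPM was that of a model on the plus strand of scaffold313.0 (46138 to 50011) with a coding length of 3618 bases, chosen after its values were seen. It had 3631, 4435 and 3602 CPM in day 3 replicates 1, 2 and 3, against 1271, 547.1 and 1064 CPM in day 0 replicates 1, 2 and 3. This rise of 2.02 ± 0.283 on the log2 scale (SE, edgeR adjusted p = 0.00218) was called with each library left out, and later levels were 3744 ± 409 CPM at day 6, 3045 ± 1105 CPM at day 9 and 2350 ± 148 CPM at day 12 (SD, n = 3 each). The second gain, on the plus strand of scaffold25.0 (896005 to 896280, coding length 276 bases), was small as a fold but large in reads. That model had 3694, 3540 and 3899 CPM in the day 3 libraries against 2227, 2641 and 2141 CPM at day 0, a log2 fold change of 0.67 ± 0.133 (SE, edgeR adjusted p = 0.0101) that was also called with each library left out.

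The largest loss in CPM was uneven between the day 0 libraries. A model on the plus strand of scaffold59.0 (82088 to 83210, coding length 759 bases), also chosen after its values were seen, had 164.5, 108.5 and 103.6 CPM in day 3 replicates 1, 2 and 3. In day 0 replicates 1, 2 and 3 it had 623.5, 396.6 and 2042 CPM, so that the days did not overlap but day 0 replicate 3 lay far above the other two. The log2 fold change was -3.02 ± 0.615 (SE, edgeR adjusted p = 0.011), it was -2.02 without day 0 replicate 3, and the call was lost without day 3 replicate 2 (adjusted p = 0.0537). The gains of all models called higher summed to 45606 CPM, and 74 models made up 50% of it, with 12.4% in the top 3. The losses of the models called lower summed to -29553 CPM, and 121 models made up 50%.

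Few models went from no counts to clear expression or the reverse. A model on the minus strand of scaffold302.0 (245283 to 246005) was the 1 model that had no count at day 0 and 10 or more in every day 3 library. It had 47, 28 and 42 counts at day 3, at least 37.9-fold higher when day 0 is set to a floor of 3 counts over its 3 libraries, but edgeR did not call it (adjusted p = 0.123). In the opposite direction were 2 models. The model on the plus strand of scaffold604.0 (196393 to 198234) had no count at day 3 against 19, 27 and 16 counts at day 0, at least 21.2-fold lower, and was called (edgeR adjusted p = 0.00924), also with each library left out. The model on the plus strand of scaffold401.0 (85046 to 86377) had no count at day 3 against 10, 10 and 19 counts at day 0, at least 13.4-fold lower, and its counts were too low for it to be tested with all 15 libraries. It passed the filter and was called lower in the 4 fits without day 0 replicate 1 or without a day 3 replicate (edgeR adjusted p from 0.0127 to 0.0296). Outside day 0 both falling models had few counts or none, so they could pass the filter only through the day of the high counts. Their calls are therefore not separate support for the falls. These 3 models were chosen after their values were seen, and the floors cover counting error only.

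The calls of neighbouring models were compared along the scaffolds. Among models called higher that had a tested model next along the scaffold, 132 of 1227 (10.8%) were followed by another one called higher, against 4.47% of all models tested. Among models called lower, 105 of 1375 (7.64%) were followed by another one called lower, against 4.90%. Same-strand neighbours under 5000 bases apart had shares of 16.3% (45 of 276) for rises and 8.02% (26 of 324) for falls. Over all second models of such pairs, 4.32% were called higher and 4.45% lower. Divergent pairs under 5000 bases apart had 10.6% (9 of 85) and 9.17% (10 of 109), against 3.14% and 5.71% of all their second models. Convergent pairs within that distance had 6.71% and 4.46%, against 4.62% and 5.10%, so the share for falls lay below. Neighbours at least 20000 bases apart had 9.80% and 6.37%, against 3.88% and 4.64%. Copies of a gene lie side by side in plant genomes and may share reads, and without the pairs of equal length the shares were 9.82% and 7.40%. Without day 0 replicate 2 the share for rises was 5.48%, against 1.77% of all models called higher in that fit. For falls the order turned round without day 3 replicate 2, with 1.00% against 1.41%.

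In 22 places at least 3 tested neighbours were called in the same direction, 15 of them higher and 7 lower, and 12 of the 22 lay on 1 strand throughout. On scaffold389.0 (404268 to 426635, minus strand), 4 tested models of the 6 listed there rose by 0.94 to 1.96 on the log2 scale, and these calls held whichever library was left out. Their lengths alternate between 633 and 648 bases, so they may be copies that share reads. The summed level of these 4 was 520 to 607 CPM in the day 3 libraries against 210 to 297 CPM in the day 0 libraries. On scaffold398.0, 3 models of 471 bases each between 223071 and 228777, all on the plus strand, rose by 2.17 to 2.54 and likewise held in these fits. Their summed level was 60.7 to 97.0 CPM at day 3 against 13.3 to 18.5 CPM at day 0.

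The longest run held 6 models on the plus strand of scaffold286.0, between 64716 and 108702, whose coding lengths ran from 1986 to 2418 bases. They rose by 0.50 to 1.35 on the log2 scale, and the highest of them had 114, 175 and 90.7 CPM in day 3 replicates 1, 2 and 3, against 56.6, 42.5 and 49.6 CPM in day 0 replicates 1, 2 and 3. Of the 6, 5, 2 and 3 were called when day 0 replicates 1, 2 and 3 were left out in turn, and 4, 2 and 5 when day 3 replicates 1, 2 and 3 were. Among the falls, 3 models of 1581 bases each on the minus strand of scaffold3.0, between 3539175 and 3585947, had log2 fold changes of -1.90, -2.85 and -1.40, and with a library left out 1 of the 3 was still called. In all, 5 of the 22 runs were made of models of equal length. These places were found after the values had been seen.

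Counts of changed models differed with the total bases of a model's span outside its coding length. The length of single introns is not known. Among Pbr models with introns, the 5525 with the fewest bases outside the coding length (34 to 775) held 167 rises and 195 falls of at least 2-fold, or 6.55%, against 4.15% of all models tested. The 5525 with the most (2642 to 65437 bases) held 52 rises and 85 falls, or 2.48%. The first group had the larger count in each of the 15 alternative fits, but the groups also differed in level. The median was 6.96 CPM for the models with the fewest such bases against 20.3 CPM for those with the most. The part of the level was not tested. Among the 5342 Pbr models without an intron, 160 rose and 147 fell by at least 2-fold, or 3.00% and 2.75%, and among the 22098 with introns 374 rose and 492 fell, or 1.69% and 2.23%.

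Length showed a small tilt. In the class of shortest models, up to 423 bases, 94 of 2914 were called higher and 165 lower, or 3.23% and 5.66% against 4.47% and 4.90% of all models tested, and the median log2 fold change was -0.09. In the class of longest, from 2606 bases, 111 of 2914 were called higher and 93 lower, or 3.81% and 3.19%, with a median of 0.06. The classes also differed in level, with a median of 4.25 CPM for the shortest models and 24.1 CPM for the longest. The part of the level in this tilt was not tested. Weighted by counts, the models averaged 1578, 1628 and 1628 bases in length in day 3 replicates 1, 2 and 3, against 1591, 1532 and 1593 bases in day 0 replicates 1, 2 and 3. Day 3 replicate 1 lay below 2 of the day 0 libraries, and the difference of 39.4 bases did not pass a two-sided exact permutation test (p = 0.3, where 3 against 3 allows no p below 0.1). With the trend on length removed from each library, 1448 models were called higher and 1333 lower. The 100 most counted models of a library took 14.2% ± 0.519 of its counts at day 3 and 14.0% ± 0.435 at day 0 (SD, n = 3 each, two-sided exact permutation p = 0.6).

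Followed over the 5 days, the models that rose and those that fell at day 3 kept different courses. The 548 models with a rise of at least 2-fold took 1.31% ± 0.156 of all scaled counts at day 0 and 3.53% ± 0.179 at day 3, then 3.04% ± 0.486 at day 6, 3.04% ± 0.371 at day 9 and, last, 2.71% ± 0.0217 at day 12 (SD, n = 3 each). Their median level was 4.77, 13.8, 11.9, 12.7 and 7.52 CPM on these days. The 661 models with a fall took 1.43% ± 0.345 at day 0 and 0.416% ± 0.0368 at day 3, then 0.575% ± 0.125 at day 6, 0.706% ± 0.0407 at day 9 and, last, 1.56% ± 0.0107 at day 12. Their median level was 7.17, 2.11, 2.70, 2.57 and 3.40 CPM, so the sum at day 12 reached the range of day 0 while the median did not. In that sum 3 models held 31.3%, led by a model on scaffold58.0 (857193 to 859768) with 2115 ± 65.2 CPM at day 12, 48.8 ± 14.2 CPM at day 3 and 183 ± 36.1 CPM at day 0 (SD, n = 3 each). The groups were chosen on day 3 and day 0, so the values of these days only describe the choice. A later day set against day 0 is thus set against a chosen level, and the later days were not tested for the groups.

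**Figure D5:**
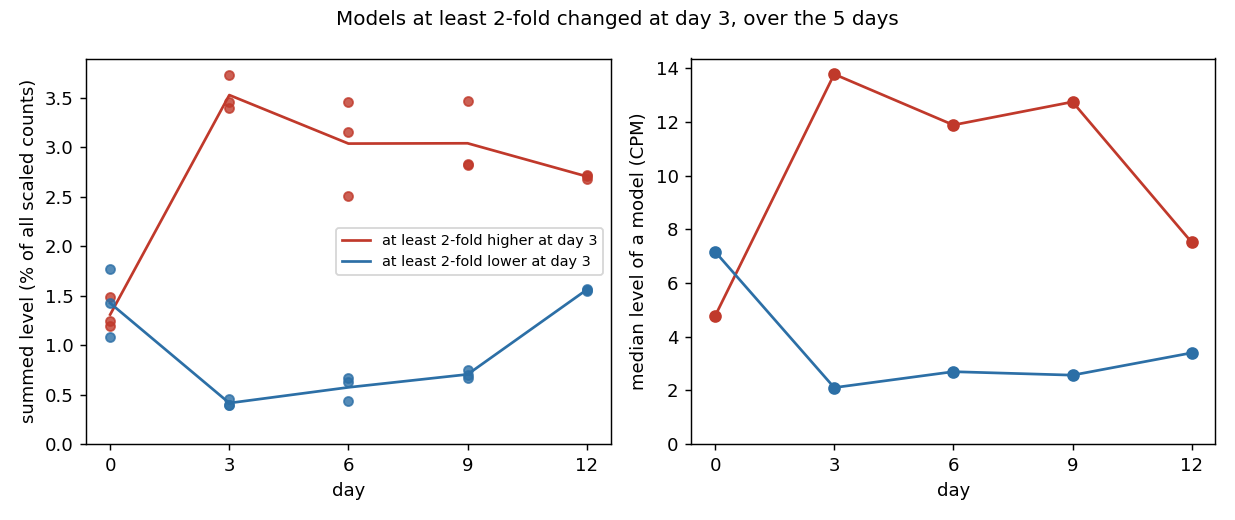
Course of the 548 models that rose (red) and the 661 that fell (blue) by at least 2-fold at day 3, over the 5 days sampled. Left, their summed level as a percentage of all scaled counts, with a point for each library and a line through the means of 3 libraries. Right, the median over models of the mean CPM of a day. The red points stay above those of day 0 on each later day. The blue sum is at 1.56% at day 12 while the blue median stays at 3.40 CPM, against 7.17 CPM at day 0. The groups were chosen on day 3 and day 0, so the day 0 level is itself part of the choice.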

How the data were processed

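The authors deposited 1 table with whole-number read counts per gene model, not normalized, and FPKM values that the authors scaled to model length and library total, both per the file headers. Per the series' design text, the Pyrus bretschneideri genome served as the sequence to compare with, and HISAT is named per the submitters' processing notes. The counter, the versions, and how strand and multiply placed reads were handled: not given in the sources used here, so near-identical copies may share reads. All 42812 Pbr models have lengths that are multiples of 3, hence coding lengths.

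Counts were fitted with edgeR 4.0.16 in R 4.3.3 over all 15 libraries (filterByExpr by day, TMM scaling, glmQLFit and glmQLFTest for day 3 minus day 0, Benjamini-Hochberg over 29134 models, called under 0.05). Standard errors were obtained as |log2 fold change| over the square root of F. CPM are TMM-scaled counts per 1000000, and log2 CPM used a prior count of 2. Library sums were compared by exact permutation in scipy 1.17.1. On simulated data with 100 models changed 2-fold and 100 changed 4-fold, the fit called 35 and 81 of them in the right direction. It also called 2 of the unchanged models. Most of the simulated 2-fold changes were thus missed.

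Named models were the 2 largest rises and 2 largest falls, of 213 and 183 candidates, that were called, at least 2-fold, without overlap, at 2 CPM or more on the higher day and called with each day 3 or day 0 library left out. Gene lists written as patterns on descriptions were not used, since the table pairs no ID with a description. The comparison, groups and rules were chosen with earlier results of these data known. Alternatives were DESeq2 1.42.0, its size factors, no filter, fewer libraries, a replicate block and removal of a trend on length.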

Additional observations from a re-analysis of the deposited data

How the results depend on the processing

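The 4 named models kept their direction and their call in all 15 alternatives. In 6 of them, each with 1 library dropped, the call was a condition for naming a model. Those fits are thus no test of the call, while the other alternatives were not part of the rule. Both named falls could pass a count filter only through day 0, so their calls in the filtered fits are not separate support either. Log2 fold changes ranged from 5.93 to 10.55 for Pbr013951.1 and from 3.54 to 4.72 for Pbr006185.1. For the falls they ranged from -8.76 to -6.39 for Pbr027769.1 and from -6.59 to -5.08 for Pbr027808.1. The counts of called models, which no such rule fixed, moved with the fit. DESeq2 called 2025 models higher and 2136 lower, against 1301 and 1427 with edgeR, and without the day 6 libraries edgeR called 2322 higher and 2692 lower. With each day 3 or day 0 library left out in turn, 523 to 1055 models were higher and 419 to 1393 lower, and 272 to 494 rose and 261 to 772 fell by at least 2-fold. The fits with libraries left out have fewer samples, and what moved the counts, down or up, was not tested. Models with at least 5 counts in each library of 1 day and none in the other numbered 2 switched on and 8 switched off, and with 1 count allowed on the other day 2 and 7, against 1 and 2; with a library left out they numbered 1 to 3 and 2 to 8. Runs of at least 4 neighbours numbered 2 higher and 1 lower, and runs of at least 3 numbered 15 and 7. With day 0 and day 3 alone 1 higher run was left, and with a library left out 1 to 2 higher runs and 0 lower runs. The day 3 excess in the share of the 100 most counted models ranged from -0.00417 to 0.514 percentage points with a library left out, and was reversed without day 3 replicate 3. The difference in mean length ranged from 19.5 to 56.2 bases. Depth limits the models at low level, where only large changes were called.

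Whether equal replicate numbers mark paired libraries could not be decided, since with 3 libraries a day the deviations from a day mean depend on each other. For replicates 1, 2 and 3 these deviations correlated at 0.0119, 0.00847 and 0.0798 between libraries of equal number, and 0.0798 was the highest of all pairs. Unequal numbers gave -0.0720 to 0.0656, the highest for day 3 replicate 1 with day 0 replicate 2. With the replicate block, 1181 models were higher and 1224 lower. In a fit on day 0 and day 3 alone with the replicate block, chosen after seeing the data, 549 were higher and 413 lower, and 327 rose and 292 fell by at least 2-fold. The counts by level, by bases outside the coding length and by neighbourhood were also added after seeing the data.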

Other observations

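The model on scaffold302.0 (245283 to 246005) that appeared at day 3 was present or absent by library on the later days. It had 47, 28 and 42 counts at day 3 and none in the 3 day 0 libraries. Replicates 1, 2 and 3 had 0, 70 and 46 counts at day 6, 54, 0 and 0 counts at day 9, and 58, 74 and 0 counts at day 12. No library had a count between 0 and 28. Models with no count in 1 library and at least 20 counts in another of the same day numbered 46 at day 0 and 24 at day 3, then 108 at day 6, 28 at day 9 and, last, 18 at day 12.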
